A study of Mus musculus with 28 samples.

Results

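The complement components and receptors described here are the 9 genes C1qa, C1qb, C1qc, C2, C3, C4b, Cfb, C3ar1 and C5ar1, taken by their symbols from the 55341 rows of the gene count matrices. The rule that picks them uses their names, and all 9 were found. They were followed in bulk RNAseq of 28 subcutaneous AB1-HA tumors, AB1-HA being a mouse mesothelioma cell line carrying influenza hemagglutinin, grown in female BALB/c.AusBP mice of 8 to 10 weeks. Treatment began at a tumor size of 20 to 25 mm2, and whole tumors were taken 7 days later. The PBS group (4 tumors) received vehicle, and the ICB group (5 tumors) received immune checkpoint blockade, with anti-CTLA-4 given once (100 µg) and anti-PD-L1 given 3 times (100 µg each). The 5-FU group (5 tumors) received 5-fluorouracil, an antimetabolite, at 75 mg/kg, and the cisplatin group (4 tumors) received that platinum drug at 6 mg/kg. The 5-FU+ICB group and the cisplatin+ICB group (5 tumors each) received the drug together with ICB. All groups carried the same transplanted line, so the data describe a single cell line and not mesothelioma in general.

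Complement is a cascade of plasma proteins that tags cells and debris and recruits leukocytes. In the classical pathway C1q binds a target, its attached proteases cut C4 and C2, and the C4b2a convertase so formed cuts C3. In the alternative pathway factor B, encoded by Cfb, joins C3b to make a second convertase. The fragments C3a and C5a, the anaphylatoxins, act on the receptors C3ar1 and C5ar1 of myeloid cells. The liver makes most circulating complement, while macrophages are the main source of C1q in tissues.

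All 9 genes lie on the minus strand of GRCm38. C1qb (chr4:136880129-136886187), C1qc (chr4:136889804-136893065) and C1qa (chr4:136895917-136898803) are neighbours of 3 exons each. C4b (chr17:34728380-34743882), Cfb (chr17:34856374-34862518) and C2 (chr17:34862604-34898265) lie in the major histocompatibility region, and C3 (chr17:57203970-57228136) lies farther along that chromosome. C3ar1 (chr6:122847138-122856161) and C5ar1 (chr7:16246743-16259540) have 2 exons each. Some transcripts could be assigned to a relative. C4a, a near-identical copy of C4b, held 3.24% to 6.12% of the counts of the pair, and the readthrough gene Gm20547, which runs across Cfb and C2, held at most 3.08% of the counts of the 3. Adding these rows to C4b, Cfb and C2 changed no count of called members.

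The sequence upstream of the start site is shown for 1 gene of each role, since members of every role rose with ICB, to different degrees. RefSeq promoters of GRCm38.p6 were at hand for 5 of the 9 members. Capitals mark matches, on either strand, to letters typical of myeloid and inflammatory transcription factors: GGG and CC with 5 N between them (NF-kB type), TTCNNNGAA (STAT type), GAAA and GAAA with 2 N between them (interferon response type), GAGGAA (PU.1 type) and TTNNGNAA (C/EBP type), N being any base. Of 32851 promoters cut to the same length before the start, 45.8%, 7.02%, 2.98%, 23.3% and 36.8% held these in that order.
C3, chr17:57228137-57228386: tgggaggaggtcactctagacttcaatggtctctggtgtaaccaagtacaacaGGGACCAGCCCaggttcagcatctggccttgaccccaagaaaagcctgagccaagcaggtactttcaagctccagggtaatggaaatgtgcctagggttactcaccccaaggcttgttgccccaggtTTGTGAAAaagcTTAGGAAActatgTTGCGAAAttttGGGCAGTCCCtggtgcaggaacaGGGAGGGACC
C1qb, chr4:136886201-136886450: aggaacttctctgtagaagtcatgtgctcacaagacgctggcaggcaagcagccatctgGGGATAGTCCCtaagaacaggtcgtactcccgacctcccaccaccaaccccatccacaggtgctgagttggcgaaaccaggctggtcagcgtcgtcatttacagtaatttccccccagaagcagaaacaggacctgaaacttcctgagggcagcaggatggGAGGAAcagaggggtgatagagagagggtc
C3ar1, chr6:122856162-122856407: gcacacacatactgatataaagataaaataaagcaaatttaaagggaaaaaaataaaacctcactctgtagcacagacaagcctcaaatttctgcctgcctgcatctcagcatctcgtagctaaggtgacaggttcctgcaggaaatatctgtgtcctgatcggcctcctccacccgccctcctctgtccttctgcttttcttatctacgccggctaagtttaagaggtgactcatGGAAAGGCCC
The C3 promoter held the NF-kB type letters at 3 places and the C/EBP type letters at 3 places, the nearest of them ending at base -1 and base -38 from the start site. Some of these matches run on both strands and overlap. The C1qb promoter held an NF-kB type match from base -191 and the PU.1 type letters from base -30, and the C3ar1 promoter held an NF-kB type match from base -14. Of the members not shown, C1qc held NF-kB, PU.1 and C/EBP type letters, and C5ar1 held the C/EBP type alone. The STAT type and interferon response type letters were in none of the 5 promoters. The matches describe the letters only and were not tested as binding sites.

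The tumors had 23541733 to 33950805 estimated counts, with a median of 28797552, and 3 counts corresponded to 0.0884 to 0.127 CPM, the unit of counts scaled to the size of the library, so every member was far above that counting limit in every tumor. CPM were scaled by TMM over all 28 tumors. EdgeR's quasi-likelihood test was used between groups. A gene was called, higher or lower, where its Benjamini-Hochberg adjusted p was under 0.05 and its log2 fold change was beyond 0.5 in size. The p-values measure the spread between tumors of separate mice. Of the mesothelial markers, Msln was present at 271 to 358 CPM in PBS tumors, but Wt1 stayed at or under 0.181 CPM, Krt19 at or under 0.361 CPM and Upk3b at or under 0.0332 CPM there, so of this list Msln alone was a usable marker of the line. Hepatocyte markers (Alb, Apoa1, Ttr, Apob) summed to at most 0.850 CPM in any tumor. In 3 tumors the profile stood apart from the rest of the group: cisplatin+ICB 1 (mean correlation of 0.844 with its group), 5-FU+ICB 5 (0.902) and 5-FU+ICB 2 (0.910), against 0.937 to 0.980 in the other tumors. Of these, 5-FU+ICB 5 held Msln at 0.5 CPM, against 34.4 to 167 CPM in the rest of its group.

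All 9 members rose with ICB alone against PBS, where 19% of the 17916 tested genes were called higher. With 5-FU alone 7 of the 9 rose, against 9.98% of all genes. With cisplatin alone 0 of the 9 were called, and 0% of 17819 genes were, while 0 of the 9 had an unadjusted p under 0.05 (1.78% of all genes) and DESeq2 called 0. With 5-FU+ICB all 9 rose (background 21.9%), and with cisplatin+ICB 4 of the 9 rose (background 4.7%). No member was called lower in any of these comparisons. The median log2 fold change of the members was 1.94 with ICB, 1.28 with 5-FU, 0.32 with cisplatin, 1.62 with 5-FU+ICB and 1.14 with cisplatin+ICB, while the median over all tested genes lay between -0.04 and 0.03. The groups did not overlap with PBS for 9 members with ICB (37.4% of all tested genes), 7 with 5-FU (27%), 1 with cisplatin (3.44%), 6 with 5-FU+ICB (25.5%) and 1 with cisplatin+ICB (8.12%). These comparisons share the 4 PBS tumors. In bulk tumors, a change in the number of cells of a type and a change in RNA per cell cannot be told apart.

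The counts for ICB and 5-FU+ICB stayed at 9 when any 1 tumor was left out, and that for cisplatin stayed at 0. The count for 5-FU fell to 3 without PBS 2 and to 5 without PBS 1 or 5-FU tumor 3, while the count over all genes, in either direction, fell from 4115 to 1436, 1919 and 2947. The count for cisplatin+ICB was 7 without cisplatin+ICB 1 (18.2% of all genes called higher), 2 without PBS 2 or cisplatin+ICB 2, 4 or 5, and 0 without PBS 1, 3 or 4. Over all genes the fits with 2 members called 790, 249, 266 and 361 in that order and the last fits 0, against 1087 with every tumor. The cisplatin+ICB count was also 0 with the replicate number as a block and 0 with a model of these groups alone, and the 5-FU count was 4 with the block and 4 with all 6 groups joined. DESeq2 called 6 members with cisplatin+ICB (2156 genes in all) and 8 with 5-FU (4856 in all).

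**Figure D1:**
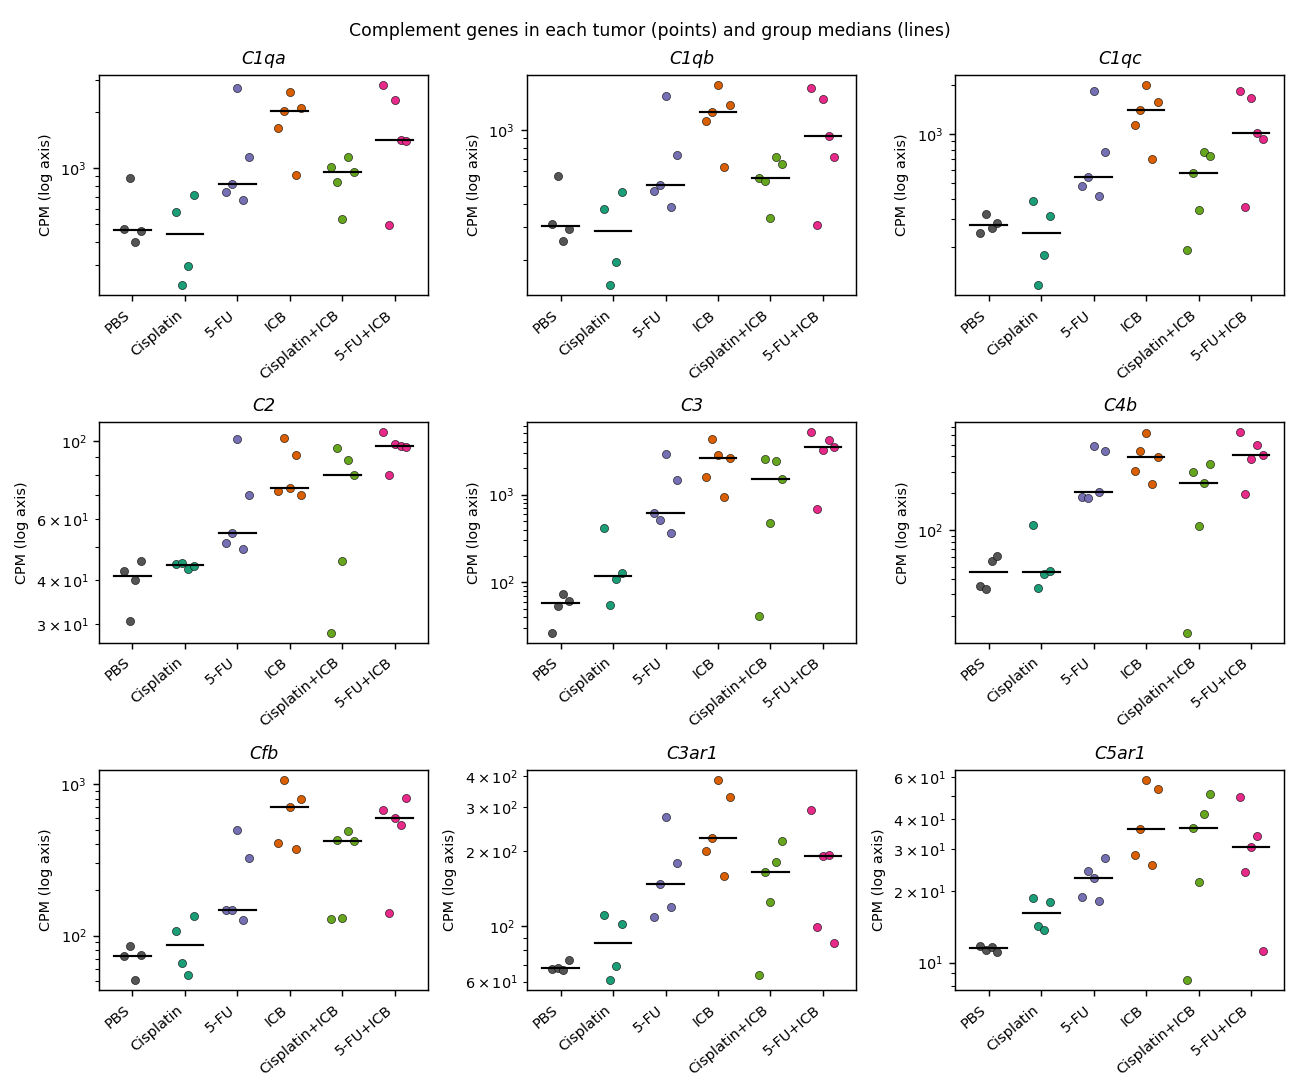
Level of each gene in each tumor, in CPM on a log axis, by treatment group. Points are tumors and lines are group medians. C3 runs from 26.7 CPM in a PBS tumor to 5163 CPM in a 5-FU+ICB tumor.

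The 3 chains of C1q are the recognition subunit of the classical pathway. C1qa stood at 468, 877, 400 and 455 CPM in the PBS tumors and at 1648, 2029, 2559, 911 and 2115 CPM in the ICB tumors. The lowest ICB tumor was just above the highest PBS tumor. C1qb went from 313, 564, 254 and 292 CPM to 1115, 1254, 1756, 633 and 1365 CPM. C1qc went from 244, 323, 265 and 284 CPM to 1129, 1410, 2010, 696 and 1581 CPM. No chain overlapped between the groups. The log2 fold changes were 1.76 (SE 0.50, edgeR adjusted p = 0.0105) for C1qa, 1.79 (SE 0.49, adjusted p = 0.00853) for C1qb and 2.31 (SE 0.49, adjusted p = 0.00187) for C1qc.

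5-FU alone gave C1qc values of 479, 544, 1828, 415 and 775 CPM, all above the PBS tumors. The third of these tumors had more than 2-fold the C1qc level of any other in the group. The log2 fold change was 1.55 (SE 0.47, edgeR adjusted p = 0.0255), and without that tumor it was 0.99 (adjusted p = 0.0850) and no longer called. C1qa and C1qb ranged from 671 to 2698 CPM and from 383 to 1531 CPM in the 5-FU tumors and were not called, at log2 fold changes of 1.14 (SE 0.49, adjusted p = 0.0914) and 1.02 (SE 0.48, adjusted p = 0.119). In the cisplatin tumors the chains had their lowest group means on the log2 scale, 8.68 log2 CPM for C1qa against 9.03 in PBS, a gap smaller than the SD among the cisplatin tumors. The cisplatin values for C1qa were 578, 233, 297 and 711 CPM, 2 of them below the PBS range and 2 within it.

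With 5-FU+ICB the chains varied widely between tumors. C1qa stood at 2818, 490, 2332, 1411 and 1402 CPM, and C1qc at 1843, 356, 1660, 1007 and 929 CPM. The second tumor, one of those that stood apart, was the lowest for all 3 chains and lay within the PBS range of C1qa. The log2 fold changes against PBS were 1.62 (SE 0.50, edgeR adjusted p = 0.0147) for C1qa, 1.53 (SE 0.49, adjusted p = 0.0175) for C1qb and 2.08 (SE 0.48, adjusted p = 0.00327) for C1qc. With cisplatin+ICB C1qa stood at 1017, 838, 533, 1144 and 951 CPM, and 0 of the 3 chains were called against PBS (adjusted p between 0.179 and 0.287 by edgeR). Without the cisplatin+ICB tumor that stood apart, C1qc was called there at 1.2 (adjusted p = 0.0190).

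The balance between the chains was given by the share of each in the summed C1q CPM of a tumor, as a description noticed after the values were seen. C1qc made up 24.6% ± 4.71 (SD, n = 4) in PBS, 30.6% ± 1.10 (n = 5) in ICB, 29.0% ± 0.776 in 5-FU, 25.1% ± 3.38 (n = 4) in cisplatin, 30.2% ± 0.690 in 5-FU+ICB and 25.9% ± 8.41 in cisplatin+ICB. The highest PBS tumor had 28.8% and the lowest ICB tumor 29.0%. The lowest share of each of these groups was 18.3% in PBS 2, 21.1% in cisplatin 4 and 11.0% in cisplatin+ICB 1. In those tumors C1qc was low beside C1qa and C1qb, whose levels tracked each other across all tumors (Pearson r = 0.995 on log2 CPM, n = 28 tumors that share the treatment groups, and 0.991 after group means were removed). The cause was not tested.

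**Figure D2:**
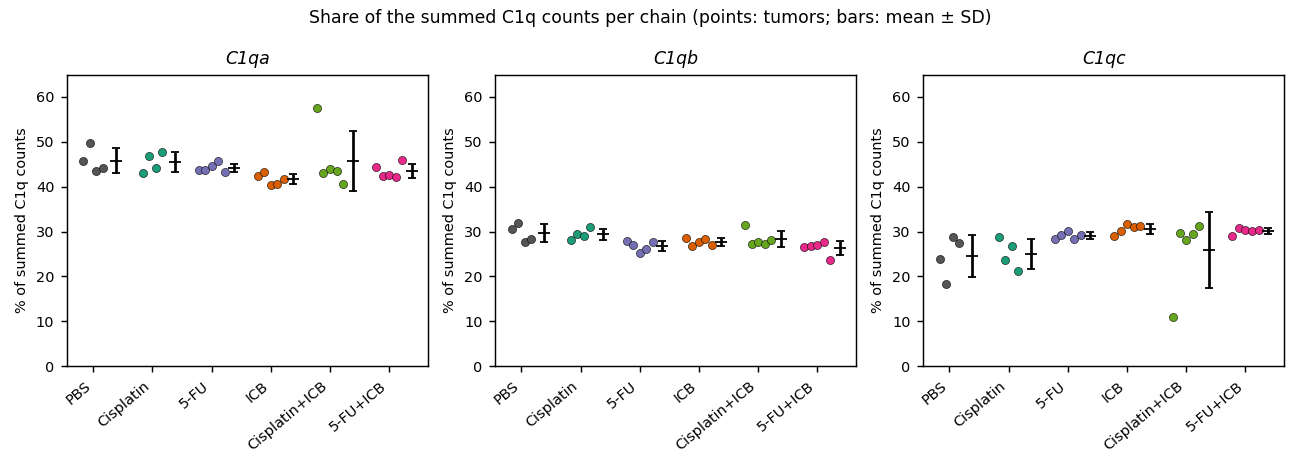
Share of each chain in the summed C1q CPM, in percent, by treatment group. Points are tumors and bars are mean ± SD. C1qc had 30.6% of the sum in ICB tumors and 24.6% in PBS tumors, and cisplatin+ICB 1 had 11.0%.

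The convertase components C2, C3, C4b and Cfb held the largest and the smallest changes of the ICB, 5-FU and 5-FU+ICB comparisons with PBS. C3, on which all pathways converge, stood at 26.7, 54.3, 74.3 and 62.0 CPM in PBS tumors. With ICB it stood at 1606, 4281, 2814, 944 and 2647 CPM. Every ICB tumor was more than 10-fold above every PBS tumor, and the log2 fold change was 5.55 (SE 0.76, edgeR adjusted p = 0.000149), a 46.8-fold difference. With 5-FU C3 stood at 616, 516, 2876, 366 and 1482 CPM, again above all PBS tumors, at a log2 fold change of 4.47 (SE 0.72, adjusted p = 0.00172). The third 5-FU tumor was the highest, and without it the change was 3.81 (adjusted p = 0.00339).

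Cisplatin tumors held C3 at 414, 55.2, 110 and 129 CPM. One of these 4 lay within the PBS range, and the log2 fold change of 1.71 (SE 0.84, unadjusted p = 0.0586, adjusted p = 1.00 by edgeR) was not called. With 1 tumor left out it ran from 0.85, without the first cisplatin tumor, to 2.00, and was called in no fit. With 5-FU+ICB C3 stood at 5163, 691, 3202, 4152 and 3490 CPM, a log2 fold change of 5.99 (SE 0.78, adjusted p = 0.000104) that was called with and without the second tumor. With cisplatin+ICB the values were 41.6, 2562, 475, 2429 and 1526 CPM. The first of these, cisplatin+ICB 1, lay inside the PBS range while the other 4 lay above it, and the log2 fold change was 4.71 (SE 0.95, adjusted p = 0.0147) with it and 5.12 (adjusted p = 0.000527) without it.

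C4b, the mouse C4 gene of the classical convertase, stood at 35.3, 33.4, 56.1 and 62.2 CPM in PBS tumors and at 302, 445, 619, 236 and 395 CPM in ICB tumors. The groups were far apart, at a log2 fold change of 3.14 (SE 0.41, edgeR adjusted p = 0.000111). With 5-FU the values were 185, 184, 486, 205 and 439 CPM, all above PBS, at 2.72 (SE 0.41, adjusted p = 0.00103). With cisplatin they were 111, 34.1, 43.9 and 46.9 CPM, of which the first alone exceeded PBS. With 5-FU+ICB the change was 3.23 (SE 0.42, adjusted p = 0.000100). With cisplatin+ICB the values were 14.6, 297, 109, 244 and 344 CPM and the change of 2.12 (SE 0.62, adjusted p = 0.0510) missed the threshold, while without cisplatin+ICB 1 it was 2.51 (adjusted p = 0.00119) and called.

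Cfb, the catalytic subunit of the alternative convertase, stood at 73.0, 84.9, 50.8 and 74.2 CPM in PBS tumors and at 410, 1069, 703, 372 and 802 CPM in ICB tumors. The log2 fold change was 3.26 (SE 0.53, edgeR adjusted p = 0.000445), with no overlap. With 5-FU it ranged from 127 to 496 CPM (1.82, SE 0.50, adjusted p = 0.0158), and with cisplatin from 54.9 to 135 CPM (0.36, SE 0.45, adjusted p = 1.00). With 5-FU+ICB it ranged from 140 to 808 CPM (2.98, SE 0.53, adjusted p = 0.000813). Cfb was the only member whose 5 cisplatin+ICB tumors, at 128, 424, 131, 490.5 and 423 CPM, were all above PBS, and it was called there at 2.19 (SE 0.46, adjusted p = 0.0164), and at 2.45 (adjusted p = 0.00163) without cisplatin+ICB 1.

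C2, the protease of the classical convertase, moved least in each of the ICB and 5-FU comparisons with PBS. Its levels were 42.5, 30.7, 40.01 and 45.4 CPM in PBS tumors and 72.0, 103, 73.4, 91.3 and 70.3 CPM in ICB tumors. The spread within groups was small, and the change of 1.08 (SE 0.21, edgeR adjusted p = 0.00104) was called. With 5-FU it ranged from 49.2 to 101 CPM (0.74, SE 0.20, adjusted p = 0.0167), and with 5-FU+ICB from 79.9 to 106 CPM (1.30, SE 0.21, adjusted p = 0.000514). In the 4 cisplatin tumors it stayed between 43.3 and 44.9 CPM (0.16, SE 0.29). With cisplatin+ICB it stood at 28.4, 95.6, 45.4, 88.7 and 80.4 CPM and was not called at 0.78 (SE 0.28, adjusted p = 0.0928), but was called without cisplatin+ICB 1 at 1.05 (adjusted p = 0.00231).

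Per kilobase of the longest coding transcript, levels can be set beside each other between genes. In PBS tumors C1qa had 529 ± 212 CPM per kb (SD, n = 4), C1qb 327 ± 130 and C1qc 232 ± 28.0, while C3 had 10.6 ± 3.93, C4b 8.69 ± 2.71, C2 15 ± 2.42 and Cfb 25.7 ± 5.21. The C1q chains were thus the most abundant members in PBS tumors. In ICB tumors (n = 5) C1qa had 1781 ± 594 CPM per kb, C3 479 ± 248, Cfb 244 ± 105, C4b 74.3 ± 27.3 and C2 31.0 ± 5.41, so that C3, which lay below C2 in PBS tumors, lay well above it here. In 5-FU+ICB tumors C3 had 650 ± 323 CPM per kb. The receptors C3ar1 and C5ar1 had 16 ± 0.711 and 4.5 ± 0.128 CPM per kb in PBS tumors and 60.4 ± 22.0 and 15.9 ± 5.88 in ICB tumors.

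The receptors showed the tightest PBS levels. C3ar1, the receptor for C3a, stood at 67.6, 68.0, 66.6 and 73.4 CPM in PBS tumors and at 201, 225, 386, 158 and 329 CPM in ICB tumors. C5ar1, the receptor for C5a, stood at 11.7, 11.3, 11.7 and 11.0 CPM in PBS and at 28.2, 36.4, 58.7, 25.6 and 53.6 CPM in ICB tumors. Both rose without overlap, C3ar1 by 1.94 (SE 0.36, edgeR adjusted p = 0.000913) and C5ar1 by 1.84 (SE 0.33, adjusted p = 0.000688) on the log2 scale. With 5-FU C3ar1 ranged from 109 to 273 CPM (log2 fold change 1.28, SE 0.35, adjusted p = 0.0164) and C5ar1 from 18.2 to 27.5 CPM (0.97, SE 0.32, adjusted p = 0.0335). The C5ar1 call held in 2 of the 9 fits that left out 1 tumor, with changes of 0.88 to 1.04.

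With cisplatin C5ar1 stood at 18.7, 14.2, 13.7 and 18 CPM, and it was the 1 member of 9 whose cisplatin and PBS tumors did not overlap. Its log2 fold change of 0.51 (SE 0.39, edgeR adjusted p = 1.00) was not called. C3ar1 overlapped, at 60.8 to 111 CPM. With 5-FU+ICB C3ar1 ranged from 85.5 to 291 CPM (1.34, SE 0.35, adjusted p = 0.00634) and C5ar1 from 11.2 to 49.5 CPM (1.41, SE 0.32, adjusted p = 0.00300). Both were at their group's lowest in 5-FU+ICB 5. With cisplatin+ICB they rose by 1.14 (SE 0.32, adjusted p = 0.0448) and 1.5 (SE 0.39, adjusted p = 0.0320), with the lowest value of each, 63.7 and 8.43 CPM, in cisplatin+ICB 1, and without that tumor the changes were 1.41 (adjusted p = 0.00231) and 1.81 (adjusted p = 0.000849). Each of these calls held in 2 of the 9 fits that left out 1 tumor.

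**Figure D3:**
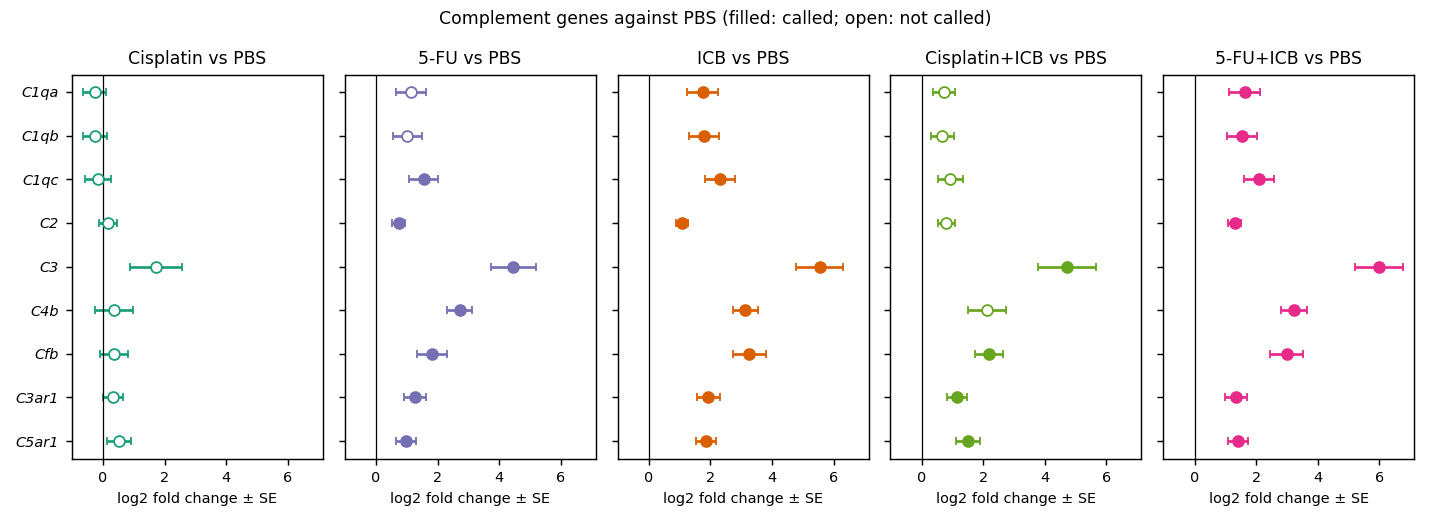
Log2 fold change against PBS for each member and treatment, with the standard error as the bar, from edgeR's quasi-likelihood test. Filled points were called and open points were not. C3 had the largest change in each comparison, from 1.71 (not called) with cisplatin to 5.99 with 5-FU+ICB.

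By mean log2 CPM, 6 members were highest in ICB tumors (the C1q chains, Cfb, C3ar1 and C5ar1) and 3 in 5-FU+ICB tumors (C2, C3 and C4b). The lowest group was PBS for 6 members and cisplatin for the 3 C1q chains. Of the 45 pairs of neighbouring groups in these orders, 36 lay no farther apart than the larger of their SDs, and 9 lay farther apart. The ICB and 5-FU+ICB groups were neighbours at the top for C1qa, C1qb, C1qc, C2, C3, C4b and Cfb, in each case within that SD.

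Against ICB alone, 5-FU+ICB called 0 of the 9 members (0.229% of all genes called in either direction), with 0 at an unadjusted p under 0.05 in edgeR (10.9% of all genes) and 0 called by DESeq2. The differences ran from -0.59 for C3ar1 (SE 0.32) to 0.44 for C3 (SE 0.57) on the log2 scale. Against ICB alone, cisplatin+ICB also called 0 (0% of all genes), yet all 9 members lay lower, 5 had an unadjusted p under 0.05 (15.9% of all genes) and DESeq2 called 0. The largest of these differences were -1.38 (SE 0.38) for C1qc, -1.13 (SE 0.34) for C1qb, -1.07 (SE 0.40) for Cfb and -1.05 (SE 0.34) for C1qa, each with an edgeR adjusted p of 0.291. In C1qc the cisplatin+ICB tumors stood at 194, 578, 341, 774 and 733 CPM, of which 2 were above the lowest ICB tumor.

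Adding ICB to a drug was compared with the drug alone. 5-FU+ICB against 5-FU called 0 of 9 (0.0112% of all genes), with 3 at an unadjusted p under 0.05 in edgeR (16.6%) and 0 called by DESeq2. These 3 were C2 (0.56, SE 0.19), C3 (1.52, SE 0.58) and Cfb (1.16, SE 0.45), and they were called when 5-FU+ICB 2 was left out, at adjusted p of 0.0471, 0.0409 and 0.0337 (8.09% of all genes called higher). Without 5-FU tumor 3, C2 (0.78) and C3 (2.18) were called, among 640 genes in all against 2 with every tumor. Cisplatin+ICB against cisplatin called 0 of 9 (0% of all genes), although all 9 were higher with an unadjusted p under 0.05 (14.2% of all genes). DESeq2 called 3, beside 2.21% of 35419 genes, which include those that the edgeR filter removed. Without cisplatin+ICB 1 edgeR called 7, all but C1qa and C1qb (8.31% of all genes called higher), among them C3 at 3.37 (adjusted p = 0.00764) and C4b at 2.14 (adjusted p = 0.00757), and without cisplatin+ICB 3 it called 1 (536 genes in all, against 0 with every tumor).

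Both drugs were also set beside each other. 5-FU against cisplatin called 0 of 9 (0.362% of all genes), with 8 at an unadjusted p under 0.05 in edgeR (15.5%) and 4 called by DESeq2 (1.81% of its 36683 unfiltered genes). All 9 were higher with 5-FU. C1qc, C2 and C4b did not overlap between the drugs, as for 12.5% of all genes, and C4b came nearest to the threshold at 2.35 (SE 0.58, edgeR adjusted p = 0.0644). Between the combinations 0 of 9 were called (0.297% of all genes), with 4 at an unadjusted p under 0.05 in edgeR (25.7%) and 0 called by DESeq2, and C1qc had the smallest adjusted p at 0.127 (1.15, SE 0.45). Without 5-FU+ICB 2, C1qc was called there at 1.38 (adjusted p = 0.0438, with 6.29% of all genes called higher).

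The interaction of a drug with ICB is the effect of adding the drug to ICB minus the effect of the drug against PBS. All 9 estimates for 5-FU were negative, so the combination was lower than the sum of the single log2 effects. C3 had -4.02 (SE 0.87, edgeR adjusted p = 0.0657), C4b -2.62 (SE 0.52, adjusted p = 0.0621) and Cfb -2.10 (adjusted p = 0.0798), and 0 of 9 were called (0.0893% of all genes). With 1 tumor left out the C3 estimate ran from -4.26, without 5-FU tumor 4, to -3.37, without 5-FU tumor 3. At an unadjusted p under 0.05 there were 6 (23.9% of all genes), and DESeq2 called 6 (4.34% of its 35539 unfiltered genes). With 1 tumor left out edgeR called 3 without PBS 3, PBS 4 or 5-FU+ICB 4, and 2 without 5-FU tumor 4. The count over all genes moved with them, from 16 to 1698, 1017, 950 and 81 in that order. For cisplatin the 9 estimates were negative as well, with adjusted p from 0.564 to 0.652 and 0 called (0% of all genes), 4 at an unadjusted p under 0.05 (7.14%) and 0 by DESeq2.

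Markers of several cell types differed between the groups as well. Of 6 macrophage markers (Adgre1, Csf1r, Cd68, Mrc1, Mertk, Fcgr1) 6 rose with ICB, 3 with 5-FU, 3 with 5-FU+ICB, 2 with cisplatin+ICB and 0 with cisplatin, and none of the 6 was at 0. Their summed level ran from 685 to 759 CPM in PBS, 1382 to 3617 in ICB, 813 to 2129 in 5-FU, 509 to 1018 in cisplatin, 727 to 2227 in 5-FU+ICB and 509 to 1534 in cisplatin+ICB tumors. T cell markers (5 genes) summed to 19.6 to 26.3 CPM in PBS, 135 to 508 in ICB, 29.9 to 339 in 5-FU, 38.4 to 1011 in 5-FU+ICB and 18.6 to 286 CPM in cisplatin+ICB tumors. Monocyte markers (4 genes) summed to 163 to 327 CPM in PBS, 256 to 462 in ICB and 325 to 892 CPM in cisplatin+ICB tumors, and 2 of them were called higher with ICB, 2 with 5-FU+ICB and 2 with cisplatin+ICB. Fibroblast markers (5 genes) summed to 1576 to 4997 CPM in PBS and 5119 to 9258 CPM in 5-FU tumors, and 4 of them were called higher with 5-FU, 2 with 5-FU+ICB and 0 with ICB. Neutrophil markers summed to 9.11 to 17.9 CPM in PBS and 59.2 to 164 CPM in ICB tumors, and of the 4 tested 2 were called higher with ICB and 4 with cisplatin+ICB. Endothelial markers (3 genes) summed to 60.6 to 119 CPM in PBS and 121 to 242 CPM in ICB tumors, and 1 was called higher with ICB and 3 with 5-FU+ICB. Skeletal muscle markers (4 genes) summed to 89.8 to 150 CPM in PBS, 1.52 to 2871 in ICB, 7.12 to 1189 in 5-FU and 2.11 to 3969 CPM in 5-FU+ICB tumors, and 0 were called. Of 6 acute phase and NF-kB response genes 3 rose with ICB, 4 with 5-FU, 0 with cisplatin, 5 with 5-FU+ICB and 3 with cisplatin+ICB. Of 6 interferon-gamma response genes 6 rose with ICB, 4 with 5-FU, 6 with 5-FU+ICB and 6 with cisplatin+ICB. Msln, the marker of the line, went from 271 to 358 CPM in PBS down to 52.0 to 217 in ICB, 45 to 177 in 5-FU and 0.5 to 167 CPM in 5-FU+ICB tumors, and of these comparisons it was called lower with 5-FU+ICB (-2.28, SE 0.77, edgeR adjusted p = 0.0238, and -1.96, adjusted p = 0.00742, without 5-FU+ICB 5). Mitochondrial genes held 1.53% to 2.37% of the counts in PBS, 2.69% to 4.82% in ICB, 2.72% to 6.80% in 5-FU, 1.72% to 2.76% in cisplatin, 2.33% to 16.1% in 5-FU+ICB and 1.03% to 3.99% in cisplatin+ICB tumors, so that the ICB and 5-FU tumors lay above all PBS tumors. The part of these markers and of the mitochondrial share in the members' changes was not tested.

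Within the ICB, cisplatin, 5-FU+ICB and cisplatin+ICB groups the tumor with the lowest C3 had the most Msln, a description chosen after the values were seen. In ICB 4, at 944 CPM of C3, Msln stood at 217 CPM, and in ICB 2, at 4281 CPM of C3, it stood at 52.0 CPM, the extremes of that group for both genes. In cisplatin 2, at 55.2 CPM of C3, Msln stood at 308 CPM against 212 to 297 CPM in the other 3. In 5-FU+ICB 2, at 691 CPM of C3, Msln stood at 167 CPM against 0.5 CPM (5-FU+ICB 5) to 67.8 CPM in the other 4. In cisplatin+ICB 1, at 41.6 CPM of C3, Msln stood at 654 CPM against 130 to 266 CPM in the other 4. In the PBS and 5-FU groups the tumor with the lowest C3 did not have the most Msln, at 327 against 358 CPM and at 118 against 177 CPM. Tumor cell content and the members' RNA per cell cannot be told apart here.

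Each member was also expressed as its log2 CPM minus the mean log2 CPM of the 6 macrophage markers in the same tumor. With ICB, C3 stood 3.67 higher than in PBS on this scale, Cfb 1.41 higher and C4b 1.33 higher. In these 3 no tumor overlapped (two-sided exact permutation test, p = 0.00794 each, the smallest that 5 tumors against 4 allow, and 0.0491 after adjustment over 99 tests of 9 members in 11 comparisons). C1qa (0.000808), C1qb (0.04), C3ar1 (0.10) and C5ar1 (-0.0045) differed little, C1qc was 0.47 higher (exact p = 0.0159, adjusted 0.0714) and C2 was 0.70 lower, at -0.70 (exact p = 0.103).

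With 5-FU, C3 (3.37), C4b (1.87), Cfb (0.90), C1qc (0.59) and C3ar1 (0.46) were higher on this scale (exact permutation p = 0.00794 each, adjusted 0.0491). With 5-FU+ICB, C3 stood 4.65 and C4b 2.01 higher (exact p = 0.00794), and Cfb 1.65 higher (exact p = 0.0159, adjusted 0.0714). Of the 99 tests 16 passed an adjusted 0.05, all at the smallest p the test allows, and 34 had an unadjusted p under 0.05. Since these tests sit at that limit, leaving out a tumor says nothing about their stability. Against the median of the markers or against Ptprc, a gene of all leukocytes, 0 of 99 passed, with 24 and 23 at an unadjusted p under 0.05. With ICB, C3, C4b and Cfb stayed higher against both, at 3.44, 1.10 and 1.18 against the median and at 3.45, 1.11 and 1.19 against Ptprc, while the small differences of C1qa, C1qb and C3ar1 changed sign with the reference and that of C5ar1 stayed negative, at -0.23 against the median and -0.22 against Ptprc.

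**Figure D4:**
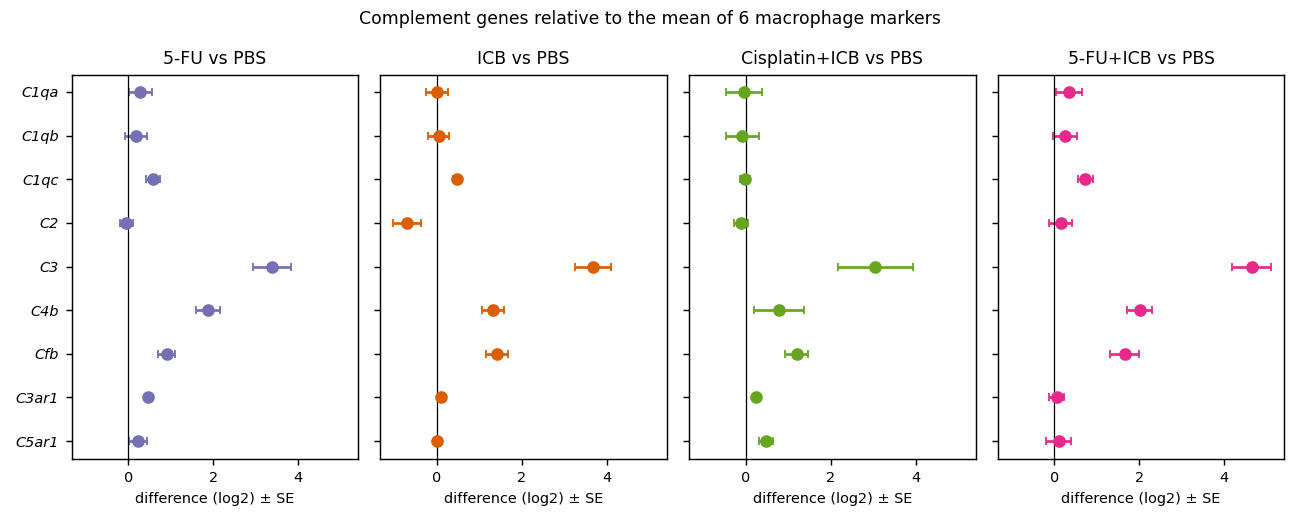
Difference from PBS of each member's log2 CPM minus the mean log2 CPM of 6 macrophage markers. Points are differences of group means. C3, C4b and Cfb lie well to the right of 0 with ICB (3.67, 1.33 and 1.41), while C1qa, C1qb, C3ar1 and C5ar1 lie near 0.

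The other genes of the cascade were taken from a list of 42, of which 31 could be tested in the 5-FU matrix and 28 in the cisplatin matrix. Against PBS 13 were called higher with ICB, 13 with 5-FU, 0 with cisplatin, 19 with 5-FU+ICB and 9 with cisplatin+ICB, beside 19%, 9.98%, 0%, 21.9% and 4.7% of all genes, and 0 were called lower. The list's median log2 fold change was 0.85, 1.24, 0.34, 2.22 and 1.00 in that order. All 4 C1 proteases (C1ra, C1rb, C1s1 and C1s2), the enzymes attached to C1q, rose in the comparisons of ICB, 5-FU, 5-FU+ICB and cisplatin+ICB with PBS, by medians of 2.63, 2.02, 2.68 and 2.06. C1ra stood at 61.8 to 88.8 CPM in PBS and 334 to 576 CPM in ICB tumors (2.45, SE 0.36, edgeR adjusted p = 0.000256). Each protease has a near-identical copy in the list, so the split of reads within C1ra and C1rb, and within C1s1 and C1s2, is uncertain. C1s2 and C1s1 were among the largest changes of the list with cisplatin+ICB, at 2.18 (adjusted p = 0.0250) and 2.12 (adjusted p = 0.0235). Of the 8 lectin pathway genes 4 were tested and 0 were called in any of these comparisons.

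**Figure D5:**
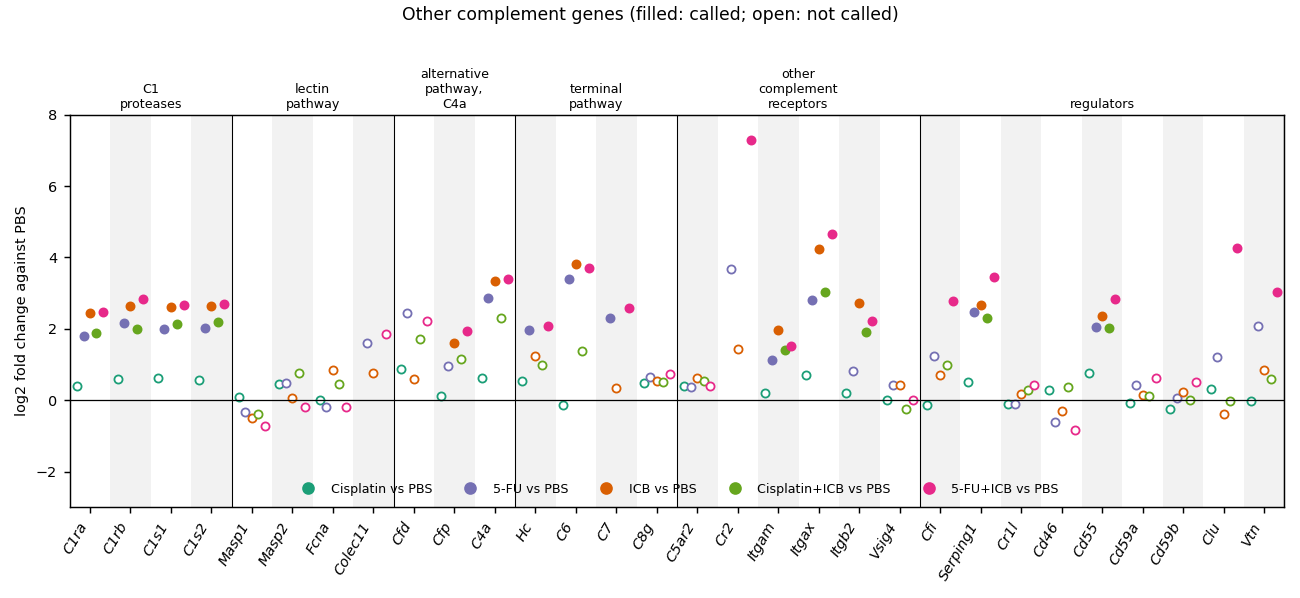
Log2 fold change against PBS of other complement genes tested, grouped by role, with 1 point per treatment. Filled points were called and open points were not. The 4 C1 proteases were called in 4 of the 5 comparisons, and the lectin pathway genes in none.

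C4a, the copy of C4b, followed it at 3.34 with ICB (SE 0.41, edgeR adjusted p = 5.92e-05) and 2.88 with 5-FU (adjusted p = 0.000615). Cfp, which encodes properdin, the stabiliser of the alternative convertase, rose with ICB (1.61, adjusted p = 0.00847) and 5-FU+ICB (1.95, adjusted p = 0.00310), and had 0.96 with 5-FU (adjusted p = 0.108). Of the terminal components, which form the membrane pore, C6 was the only one called with ICB. It went from 0.771, 2.07, 1.16 and 1.2 CPM in PBS to 17.1, 15.8, 39.4, 4.39 and 14.0 CPM in ICB tumors (3.81, SE 0.78, adjusted p = 0.00157), and it stayed at 0.470 to 2.41 CPM with cisplatin. C6 was also higher with 5-FU than with cisplatin (3.52, SE 0.76, adjusted p = 0.0366). C4a was the 1 gene of the list called in the interaction of 5-FU with ICB (-2.83, SE 0.51, adjusted p = 0.0484), a call lost without 5-FU+ICB 5 (adjusted p = 0.0708). Hc, which encodes C5, was called with 5-FU (1.98, adjusted p = 0.0232) and 5-FU+ICB (2.09, adjusted p = 0.00967) and had 1.23 with ICB (adjusted p = 0.0969).

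Among the other receptors Itgax and Itgb2, the chains of complement receptor 4, rose with ICB by 4.23 (SE 0.84, edgeR adjusted p = 0.00130) and 2.72 (SE 0.48, adjusted p = 0.000629). Itgax also rose with 5-FU (2.82, adjusted p = 0.0171), 5-FU+ICB (4.65, adjusted p = 0.00103) and cisplatin+ICB (3.04, adjusted p = 0.0330). Both chains are also carried by dendritic cells and other leukocytes. Vsig4, a C3b receptor of resident macrophages, stayed low at 0.609 to 3.83 CPM in ICB tumors and was not called (0.43, SE 0.67). Of 14 regulators 10 were tested, and 3 were called higher with ICB, 3 with 5-FU, 0 with cisplatin, 6 with 5-FU+ICB and 2 with cisplatin+ICB, where the shares over all genes were 19%, 9.98%, 0%, 21.9% and 4.7%. Serping1, the C1 inhibitor, went from 45.1 to 59.4 CPM in PBS tumors to 188 to 441 CPM in ICB tumors (2.66, adjusted p = 0.000466) and rose with 5-FU (2.48), 5-FU+ICB (3.45) and cisplatin+ICB (2.31), at adjusted p of 0.00258, 0.000123 and 0.0197. Cd55, which breaks up convertases at the cell surface, rose by 2.35 with ICB (adjusted p = 0.00551) and in the same other groups.

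With 5-FU+ICB the changes of Clu and Cr2 rested largely on 1 tumor. Clu, which encodes clusterin, an inhibitor of the pore, stood at 38.9, 21.2, 29.8, 36.6 and 1350 CPM, the last in 5-FU+ICB 5, and changed by 4.26 against PBS (SE 1.10, edgeR adjusted p = 0.00587) but by 1.01 (adjusted p = 0.0189) without that tumor. Its call against cisplatin+ICB (4.23, adjusted p = 0.0347) was lost without it (1.01, adjusted p = 0.231). Cr2, the receptor of B cells and follicular dendritic cells, stood at 61 CPM in that tumor and at 0.122 to 0.897 CPM in the other 4. Its change was 7.29 with the tumor and 2.81 without it. The number of list genes called against PBS was 19 with and without 5-FU+ICB 5, and 21 without 5-FU+ICB 2. With cisplatin+ICB it was 9, and 13 without cisplatin+ICB 1.

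Across the 28 tumors, which share the treatment groups, the members varied together to different degrees on the log2 scale. C3 and C4b had a Pearson r of 0.960, and of 0.948 after group means were removed. C3ar1 and C5ar1 had 0.922, and 0.884 within groups. Across all tumors the lowest correlation was 0.624, between C1qa and C5ar1 (0.342 within groups), and within groups it was 0.274, between C1qa and C2. Among 13305 other genes with a mean count of at least 50, the gene most like the mean of the C1q chains was Aif1 (r = 0.964), which encodes a protein of macrophages, followed by Clec4a1 (0.952) and Gm44751 (0.951). Most like the mean of the convertase components were Itgal (0.981), the integrin chain of LFA-1, and Slc15a3 (0.981), a lysosomal transporter, followed by Mmp25 (0.980). Most like the mean of the receptors was Itgam (0.958), the alpha chain of complement receptor 3, followed by Abcc3 (0.944) and Gbgt1 (0.940). These values describe likeness over the tumors and carry no test.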

How the data were processed

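RNA was measured in 28 tumors of 6 treatment groups taken from the sample labels. The authors mapped reads with kallisto 0.46.0 after bcl2fastq 2.20.0.422, summarised them with tximport and deposited estimated counts per gene, without normalization, as 2 matrices (5-FU and cisplatin) that share the 9 PBS and ICB tumors with identical values. The build was GRCm38, and the annotation release was not given in the sources used here. Positions came from GENCODE M21 and promoters from RefSeq. Of the deposited estimated counts, 23.7% were not exactly whole (no tolerance), and they were rounded. Another 26 rows had symbols turned into dates.

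Low counts were removed per matrix with filterByExpr, and after TMM scaling the model was fitted with edgeR 4.0.16 (quasi-likelihood, all groups of the matrix in the model, no covariate) in R 4.3.3. Comparisons of 5-FU with cisplatin, and between combinations, used the joined 28 tumors (18521 genes). P-values were adjusted over all tested genes by the Benjamini-Hochberg method. SEs were derived from the F statistic. Log2 CPM used a prior count of 2. DESeq2 1.42.0 was an alternative. On simulated data for ICB against PBS (17916 genes, 200 changed by a log2 of 2) edgeR recovered 79% of the changed genes, 3.07% of its calls were unchanged genes, and it made 0 calls where nothing changed.

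Depth was 23541733 to 33950805 counts per tumor, and a limit of 3 counts covers counting error only. The labels gave no batch. The 9 members, the other cascade genes and the marker lists were chosen with earlier results of these data known. All members were named, and other genes were named if they were called with the largest changes of the list in a comparison or were Cfp, Serping1 or Cd55. One further gene of that rule is not reported here. C1ra, Hc and Vsig4 were chosen after their values were seen. Alternatives were DESeq2, its size factors, other filters, the replicate number as a block, a model of the compared groups alone or of all 6 groups, each tumor left out, and for the macrophage scale the median of the markers, Ptprc and a prior count of 0.5. Summing C4b, Cfb and C2 with overlapping rows was added after seeing the data. Flow cytometry and survival data were not analysed here.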

Additional observations from a re-analysis of the deposited data

Results flagged for a closer look

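Within each group of 4 or 5 tumors, the gap of the highest and the lowest tumor to the next was set against Dixon's 95% critical value (0.829 for 4 tumors, 0.71 for 5) for the 9 members and the 3 C1q shares, 72 groups in all. Chance flags about 1 in 20 groups, and 6 values passed.

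Both member values came from 5-FU+ICB 2. Its C3 level of 691 CPM was the lowest of its group, with the next tumor at 3202 CPM (gap ratio 0.762), and its Cfb level of 140 CPM was the lowest, with the next at 533 CPM (0.763). The same tumor had the lowest mean log2 CPM of the T cell markers (2.82, against 5.85 to 7.56 in the other 4) and of the macrophage markers (6.44, against 7.00 to 7.94). The part of these cells in its low complement levels was not tested.

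The C1q shares set 2 tumors apart. In cisplatin+ICB 1 C1qc made up 11.0% of the summed C1q CPM, with the next tumor at 28.2% (gap ratio 0.848), C1qa made up 57.6%, with the next at 44.0% (0.798), and C1qb made up 31.4%, with the next at 28.1% (0.785). These 3 shares sum to the whole and are not independent. In this tumor the mean log2 CPM was 1.71 for T cell, 2.72 for endothelial and 5.87 for macrophage markers, each the lowest of its group. Its monocyte markers were the highest of its group, at 6.41 against 5.25 to 6.26. In 5-FU+ICB 5 C1qb made up 23.6%, with the next tumor at 26.6% (0.721), and that tumor had a mitochondrial share of 16.1% of its counts. Its Msln level was 0.5 CPM. Its mean log2 CPM was the highest of all tumors for T cell (7.56), endothelial (7.46) and skeletal muscle (9.66) markers, and was 7.00 for macrophage markers. The part of these markers and of the mitochondrial share in the C1q shares was not tested.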

How the results depend on the processing

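The 9 calls for ICB and for 5-FU+ICB against PBS, and the absence of calls with cisplatin, held under every alternative run. The 5-FU calls fell from 7 to 4 with the replicate block and to 4 with all 6 groups joined, while all genes called fell from 4115 to 3339 and 825. The cisplatin+ICB calls went from 4 to 0 with the replicate block and to 0 with a model of the 2 groups alone, while all genes called fell from 1087 to 95 and 0. DESeq2 called 8 members with 5-FU and 6 with cisplatin+ICB against PBS (4856 and 2156 genes in all). For cisplatin+ICB its size factors gave 5, a minimum of 10 counts 5 and no filter 3 (1111, 822 and 624 genes in all). Replicate numbers did not pair the tumors (same-number correlations from -0.63 to 0.66, median -0.019), and the block changed no other count of members. Against cisplatin, DESeq2 called 3 members with cisplatin+ICB and 4 with 5-FU, and the model of the 2 groups alone called 1 with 5-FU. In the interaction of 5-FU with ICB DESeq2 called 6 and a minimum of 10 counts in every tumor gave 1. On the macrophage scale 16 tests passed, but 0 with the median of the markers and 0 with Ptprc. The cause of these changes was not tested.

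With 1 tumor left out the calls ranged from 3 to 7 for 5-FU, 0 to 7 for cisplatin+ICB against PBS and 0 to 7 against cisplatin, 0 to 3 for 5-FU+ICB against 5-FU, 0 to 1 between the combinations, 0 to 3 in the interaction of 5-FU with ICB and 0 to 16 on the macrophage scale, where every test that passed sat at the smallest p the test allows, so that this range says nothing about stability. Of the 29 member values called, 0 changed direction. Differences near 0 that were not called did in 17 fits that left out 1 tumor. Against PBS with cisplatin these ran from -0.60 to 0.046 for C1qa, -0.60 to 0.045 for C1qb, -0.45 to 0.072 for C1qc and -0.16 to 0.53 for C4b. For 5-FU+ICB against ICB they ran from -0.38 to 0.11 for C1qa, -0.45 to 0.00081 for C1qc and -0.086 to 0.30 for C4b, and against 5-FU from -0.19 to 0.33 for C3ar1. Between the combinations they ran from -0.085 to 0.36 for C3ar1 and -0.36 to 0.13 for C5ar1.

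DESeq2's size factors within edgeR moved the median of all genes in cisplatin+ICB against PBS from 0.03 to 0.12, and DESeq2 with its own gene filter gave 0.19, so small changes there are relative to that shift. Genes under about 3 counts could not be compared at this depth, which concerned no member.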
